A study of Mus musculus with 12 samples.

Results

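The genes described here encode the platelet-derived growth factors (PDGFs) and their receptors in the mouse: the ligands Pdgfa, Pdgfb, Pdgfc and Pdgfd and the receptors Pdgfra and Pdgfrb. They were chosen by name as a complete family, by a rule that used no measured values, though earlier results of these data were known. Each had a row of its own in the deposited count table. They are 6 of 20114 rows that name 1 locus, and all 6 had enough counts to be tested, among 14039 loci. RNA came from primary mammary epithelial cells of adult females aged 9 weeks, sorted by fluorescence and sequenced in 12 libraries, 4 in each of 3 groups. Recombined cells were green, SmoM2 positive cells of the genotype mT-mG/SmoM2;MMTV-Cre. Unrecombined cells were red, SmoM2 negative cells of that same genotype, and wild type cells were red cells of the genotype mT-mG/SmoM2;+, which lacks the Cre. All groups shared the mT-mG reporter, which turns from red to green when Cre acts, and came from mice whose strain is listed as Swiss Webster with C57BL/6 and 129X1/SvJ. SmoM2 is an activated form of Smoothened, which relays Hedgehog signals at the membrane, and the MMTV promoter sets which cells express Cre. No green cells without SmoM2 were sequenced, so SmoM2, Cre activity, sorted color and the kinds of cell sorted cannot be told apart. The animals behind the libraries are not named in the labels, so the p-values measure the spread between these libraries.

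PDGFs are secreted dimers that bind receptor tyrosine kinases on neighboring cells. PDGF-A and PDGF-C act mainly on the alpha receptor, and PDGF-B and PDGF-D mainly on the beta receptor. PDGF-A and PDGF-B are cut by furin-type proteases inside the cell, while PDGF-C and PDGF-D are secreted in a latent form and released by proteases outside it. In many organs epithelium and endothelium make the ligands, and fibroblasts and pericytes of the stroma carry the receptors. Pdgfra is a common marker of fibroblasts, and Pdgfrb of pericytes and fibroblasts.

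Total counts per library lay between 19581993 and 34779433. The Hedgehog genes Smo, Gli1, Ptch1 and Hhip rose in recombined against wild type cells, in 4 of 4 cases, with a median log2 change of 3.08. Ptch1 and Hhip, with rows of their own, rose by 3.58 and 3.66. The row of Gli1 also holds Arhgap9, and whether reads of SmoM2 are counted to Smo (1.04) was not tested. Levels are given as CPM, read counts scaled to library size. The 10 luminal markers, such as Krt8 and Epcam, had reads in every library, as the epithelial label implies. They summed to between 5270 and 9600 CPM in wild type, 5590 and 7950 in unrecombined and 2230 and 4480 in recombined libraries. The 12 fibroblast markers, such as Col1a1 and Dcn, summed to between 1380 and 3360 CPM in wild type, 4940 and 6960 in unrecombined and 202 and 584 in recombined libraries. The 10 basal markers, such as Krt5 and Trp63, summed to between 863 and 1050, 490 and 1130, and 1850 and 7830 CPM in the same order. Luminal markers passed as lower in recombined against wild type cells in 2 of 10 cases and macrophage markers in 2 of 6, where 2.38% of all loci did. Adipocyte markers summed to at most 0.755 CPM in any library. Recombined libraries 3 and 4 lay far from the others in a principal component analysis (first component, 31.4% of variance). They also had reads in the fewest loci, 14256 and 14601. Transcripts of the salivary gland were present in 5 libraries, recombined 1 and 2, unrecombined 1 and 2 and wild type 2, by the salivary gene Pip. The other 7 had no read of Pip and are called libraries without salivary transcripts by that gene alone. Their 10 salivary rows still summed to 44.2 to 71.9 CPM, against 584 to 51000 in the 5. Where the call of a named PDGF, pathway or related gene was lost without recombined 3 and 4, or in the 7 libraries without salivary transcripts, this is given with it.

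Receptor RNA was low in recombined cells, ligand RNA was higher there for Pdgfa, and receptor RNA was highest in unrecombined cells. Compared with wild type, recombined cells had lower Pdgfra and Pdgfrb and higher Pdgfa, while Pdgfb, Pdgfc and Pdgfd did not pass. Thus 3 of 6 genes passed an adjusted p of 0.05 in edgeR, 1 higher and 2 lower, where 6.55% of all loci tested did (4.17% higher and 2.38% lower). In recombined against unrecombined cells 4 of 6 passed, Pdgfa and Pdgfb higher and Pdgfra and Pdgfrb lower. The share of all loci was 5.22% (3.08% higher and 2.14% lower). This fit used no pairing, and with the replicate number as a block Pdgfc passed as well. Between unrecombined and wild type cells 0 of 6 passed in edgeR, as did 0% of all loci. In that comparison 3 of 6 had an unadjusted p under 0.05, and 541 of all 14039 loci did. DESeq2, limma-voom and a weighted limma-voom fit each called 3 of 6 in the first comparison, where they called 11.3%, 5.41% and 4.69% of all loci. Each called 4 of 6 in the second, where the shares were 9.35%, 5.06% and 4.98%. The comparisons share groups, so they are not independent of each other.

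**Figure D1:**
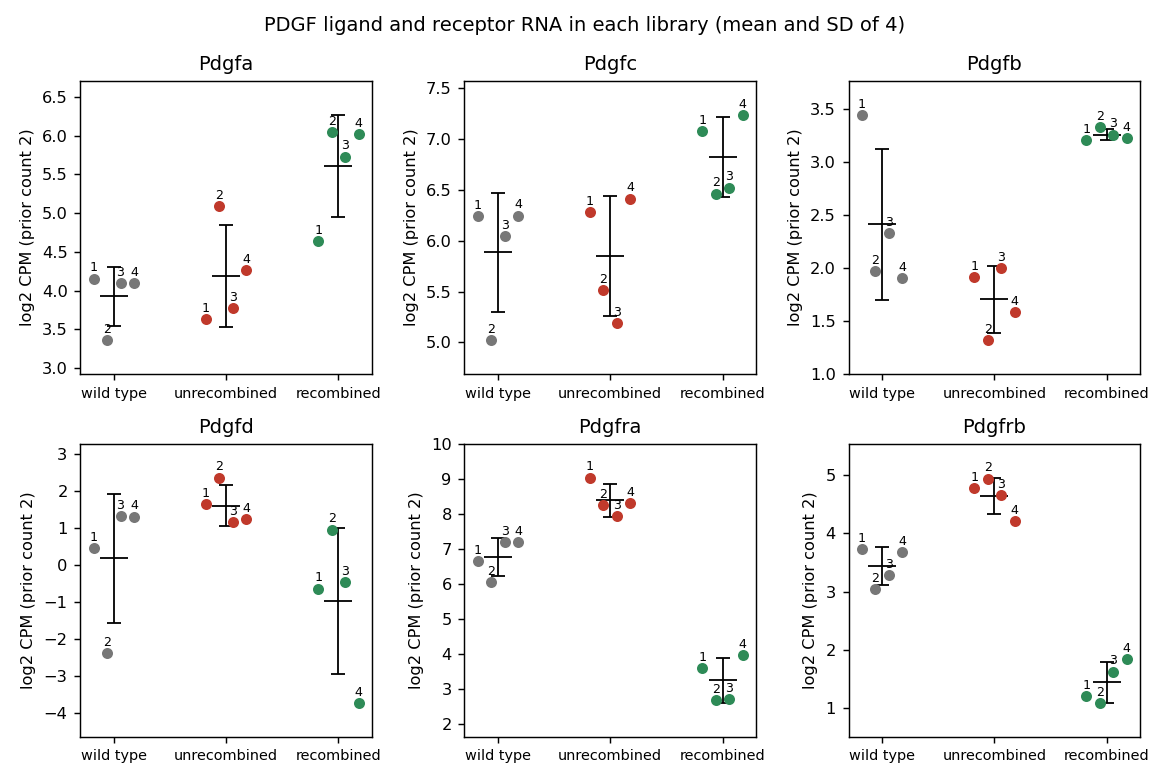
RNA level of each PDGF ligand and receptor as log2 CPM with a prior count of 2, by group, with 1 point per library labelled by its replicate number and a bar for the mean and SD of 4 libraries. For Pdgfra and Pdgfrb the 4 unrecombined libraries lie above the 4 wild type libraries and the 4 recombined libraries lie below them.

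Pdgfra encodes the alpha receptor, and its gene starts at position 75548315 of mm9 chromosome 5. Wild type libraries 1 to 4 had 100.2, 66.6, 146.8 and 146.6 CPM. Unrecombined libraries 1 to 4 had 528.3, 307.1, 246.6 and 315.7 CPM, all above every wild type library. Recombined libraries 1 to 4 had 12.01, 6.30, 6.46 and 15.5 CPM, all below every wild type library and resting on 120 to 402 reads each. The group means were 10.1 ± 4.49 CPM (SD, n = 4) for recombined, 115 ± 39.0 for wild type and 349.5 ± 123 for unrecombined libraries. Pdgfra fell by 3.51 on the log2 scale, or 11.4-fold, in recombined against wild type cells (SE 0.366, edgeR adjusted p = 0.000127). Against unrecombined cells it fell by 5.11, or 34.6-fold (SE 0.394, adjusted p = 6.04e-06). Without recombined libraries 3 and 4 these log2 changes were -3.66 and -5.26, with edgeR adjusted p of 0.00317 and 0.00033. Unrecombined cells differed from wild type by a log2 value of 1.60 (SE 0.338), a 3.04-fold difference that did not pass in edgeR (adjusted p = 0.233). DESeq2 (adjusted p = 0.00446), limma-voom (0.0328) and its weighted form (0.00719) called it, where they called 0.394%, 0.128% and 0.435% of all loci. In the 7 libraries without salivary transcripts this difference was 1.11, with an edgeR adjusted p of 1. In bulk RNA, fewer cells of a type and less RNA per cell cannot be told apart.

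The stretch upstream of Pdgfra is shown because its RNA changed most, together with those of Pdgfa and Pdgfc, ligands of the alpha receptor whose mean levels lay the other way in recombined cells. Each is 250 bases before an annotated transcript start, from RefSeq on GRCm38.p6, read 5′ to 3′ on the strand of the gene. Capitals mark the GC box GGGCGG, on either strand.
Pdgfra, chr5:75152001-75152250, plus strand: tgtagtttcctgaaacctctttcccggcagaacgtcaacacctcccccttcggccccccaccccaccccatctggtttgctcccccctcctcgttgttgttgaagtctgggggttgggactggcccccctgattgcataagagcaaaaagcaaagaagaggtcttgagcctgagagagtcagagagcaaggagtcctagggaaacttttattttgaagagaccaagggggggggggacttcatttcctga
Pdgfa, chr5:138994945-138995194, minus strand: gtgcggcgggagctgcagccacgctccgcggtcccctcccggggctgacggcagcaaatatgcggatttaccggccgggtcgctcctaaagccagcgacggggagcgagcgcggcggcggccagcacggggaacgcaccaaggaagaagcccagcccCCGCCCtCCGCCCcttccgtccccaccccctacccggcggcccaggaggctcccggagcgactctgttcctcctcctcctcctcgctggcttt
Pdgfc, chr3:81036166-81036415, plus strand: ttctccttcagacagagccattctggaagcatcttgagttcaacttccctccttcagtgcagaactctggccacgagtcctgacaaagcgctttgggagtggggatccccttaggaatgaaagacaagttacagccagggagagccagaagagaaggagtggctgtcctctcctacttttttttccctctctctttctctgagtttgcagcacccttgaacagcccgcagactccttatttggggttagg

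The Pdgfa stretch held 2 GC boxes, on the reverse strand, and 72.4% G or C bases. Those of Pdgfra and Pdgfc held no GC box and 54.4% and 50.8% G or C bases, where the median of 32851 such stretches was 52.4%. A GC box was found in 32.7% of those stretches. The motif GACCACCCA, the core letters bound by the Hedgehog factors of the GLI family, was searched on both strands and found in none of these stretches, nor in another Pdgfa stretch or that of Pdgfd, and in 0.225% of all. The TATA motif TATAAA, searched on both strands, was found among these stretches in that of Pdgfd alone, and in 12.4% of all. No stretch was available for Pdgfb or Pdgfrb, so these genes were not searched for any motif. The other Pdgfa stretch, for another annotated start, held 1 GC box. These matches describe letters in these windows only.

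Pdgfrb encodes the beta receptor, and its gene starts at position 61204803 of mm9 chromosome 18. Wild type libraries 1 to 4 had 13.2, 8.17, 9.69 and 12.8 CPM. Unrecombined libraries 1 to 4 had 27.2, 30.6, 24.98 and 18.3 CPM, all above every wild type library. Recombined libraries 1 to 4 had 2.24, 2.05, 3.02 and 3.50 CPM, all below every wild type library and resting on 56 to 85 reads each. Like the alpha receptor, it thus separated the 3 groups with no overlap. Pdgfrb fell by 2.02 on the log2 scale, or 4.06-fold, in recombined against wild type cells (SE 0.282, edgeR adjusted p = 0.000875). Against unrecombined cells it fell by 3.23, or 9.36-fold (SE 0.294, adjusted p = 1.79e-05). Without recombined libraries 3 and 4 the changes were -2.36 and -3.55, with edgeR adjusted p of 0.00325 and 0.000218. The log2 difference of unrecombined from wild type cells was 1.21 (SE 0.271) and did not pass in edgeR (adjusted p = 0.326). DESeq2 (adjusted p = 0.00306) and weighted limma-voom (0.0236) called it, and limma-voom did not (0.0856). Over every alternative this difference was 0.88 to 1.33, and it did not pass in edgeR in the 7 libraries without salivary transcripts.

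The receptors did not change in equal measure. Recombined libraries 1 to 4 had 5.36, 3.07, 2.14 and 4.42 Pdgfra reads for each Pdgfrb read. Wild type libraries had 7.58, 8.15, 15.1 and 11.5, and unrecombined libraries 19.4, 10.1, 9.87 and 17.2. The recombined libraries lay below all others in this ratio, while wild type and unrecombined libraries overlapped. The ratio was chosen after the values were seen and has no test. Across the 12 libraries the log2 levels of Pdgfra and Pdgfrb had a Pearson correlation of 0.97, a description of libraries that share the 3 group means and the same scaling.

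**Figure D2:**
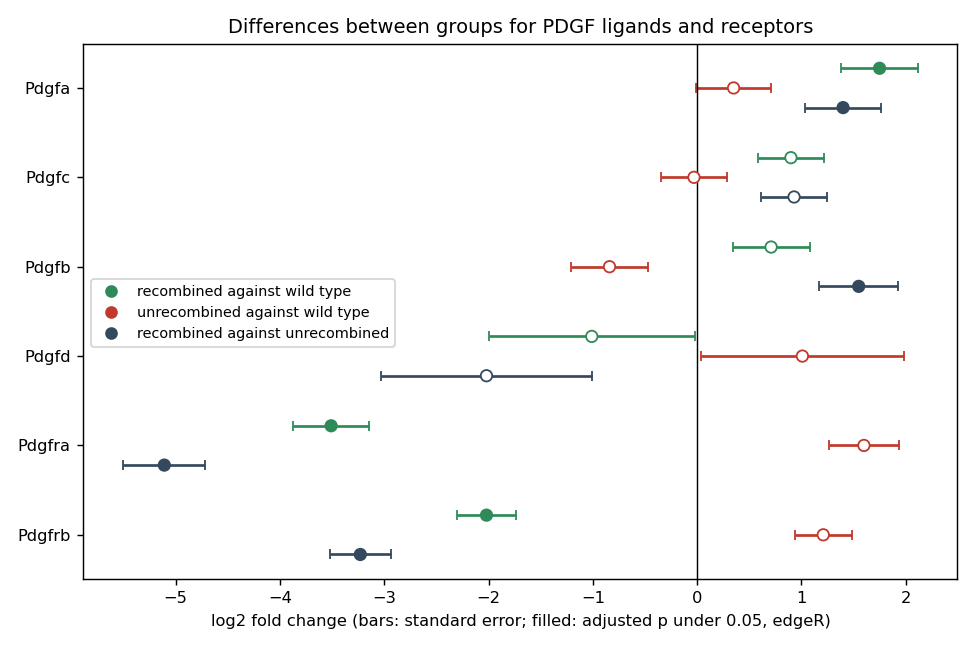
Log2 fold change of each PDGF gene in the 3 comparisons of groups, with bars for the standard error and filled points for an adjusted p under 0.05 in edgeR. The receptors lie left of 0 in both comparisons of recombined cells and right of 0 in unrecombined against wild type cells, and Pdgfa, Pdgfb and Pdgfc lie right of 0 in both comparisons of recombined cells.

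Pdgfa encodes PDGF-A, the main ligand of the alpha receptor, and its gene starts at position 139452928 of mm9 chromosome 5. Wild type libraries 1 to 4 had 17.7, 10.2, 17.1 and 17.1 CPM. Unrecombined libraries had 12.3, 33.9, 13.6 and 19.2 CPM, a range that overlapped both other groups. Recombined libraries had 24.9, 65.9, 52.9 and 64.7 CPM, all above every wild type library, with library 1 lowest and below unrecombined library 2. Pdgfa rose by a log2 change of 1.75, or 3.36-fold, in recombined against wild type cells (SE 0.366, edgeR adjusted p = 0.0115), a call kept without any single library. Without recombined libraries 3 and 4 the change was 1.55 and did not pass (adjusted p = 0.118). Against unrecombined cells it rose by 1.40 (SE 0.362, adjusted p = 0.0374). This call was lost with only the groups compared (0.0824), without recombined 3 and 4 (0.276), and without any of 9 libraries, all but recombined 1, unrecombined 2 and wild type 2 (0.0504 to 0.121). In all 4 same-number pairs the recombined library was higher than the unrecombined one, by 1.01, 0.96, 1.95 and 1.75 on the log2 scale. Unrecombined and wild type cells differed by 0.35 (SE 0.357, edgeR adjusted p = 1).

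Pdgfc encodes PDGF-C, the latent ligand of the alpha receptor, and its gene starts at position 80840337 of mm9 chromosome 3. Wild type libraries 1 to 4 had 75.3, 32.4, 65.9 and 75.8 CPM. Unrecombined libraries had 77.6, 45.7, 36.4 and 85.2 CPM. Recombined libraries had 135.1, 88.0, 91.7 and 150.6 CPM, all above every library of the other groups. The log2 differences of recombined cells were 0.90 (SE 0.315, edgeR adjusted p = 0.114) against wild type and 0.93 (SE 0.315, adjusted p = 0.119) against unrecombined cells, and neither passed. With the replicate number as a block, the first difference was 0.92 and passed (adjusted p = 0.0136), and the second was 0.96 and passed (0.0115, or 0.00478 in a fit of these groups alone). No label pairs wild type libraries with the others by number, so the block has no stated basis for the first difference. With the salivary level as a covariate the first was 0.99 (adjusted p = 0.0466). Within the same-number pairs of recombined and unrecombined libraries the difference was 0.80, 0.94, 1.33 and 0.82. Unrecombined and wild type cells differed by -0.03 (SE 0.313, adjusted p = 1).

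Pdgfb encodes PDGF-B, a ligand of both receptors that endothelium is known to make, and its gene starts at position 79826305 of mm9 chromosome 15. Recombined libraries 1 to 4 had 9.17, 9.97, 9.48 and 9.28 CPM, a narrow range with a coefficient of variation of 3.75%. Unrecombined libraries had 3.69, 2.41, 3.92 and 2.92 CPM, all below the recombined libraries. Wild type libraries had 10.8, 3.83, 4.93 and 3.66 CPM, where library 1 lay above every recombined library and the others below. Pdgfb rose by a log2 change of 1.55, or 2.92-fold, in recombined against unrecombined cells (SE 0.377, edgeR adjusted p = 0.0273). The call was lost without recombined 2 or 4 or any unrecombined library (0.0507 to 0.0875), without recombined 3 and 4 (0.123) and in the 7 libraries without salivary transcripts (0.217), with log2 changes of 1.43 to 1.65. Against wild type cells the difference was 0.71 (SE 0.37, adjusted p = 0.307), and without wild type 1 it was 1.19 (adjusted p = 0.0614). Between unrecombined and wild type cells it was -0.84 (SE 0.372, adjusted p = 1).

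Pdgfd encodes PDGF-D, a ligand of the beta receptor, and its gene starts at position 6168611 of mm9 chromosome 9. It had the fewest reads, from 0 to 135 in a library. Wild type libraries 1 to 4 had 1.29, 0.116, 2.44 and 2.40 CPM, and unrecombined libraries 3.08, 5.09, 2.16 and 2.28. Recombined libraries had 0.567, 1.87, 0.646 and 0 CPM, where the 0 allows up to 0.124 CPM by counting error (3 reads). All recombined libraries lay below all unrecombined libraries, and both groups overlapped wild type. The log2 difference of recombined cells was -2.02 against unrecombined (SE 1.01, edgeR adjusted p = 0.313) and -1.01 against wild type cells (SE 0.988, adjusted p = 0.62). The difference of unrecombined from wild type cells was 1.01 (SE 0.975, adjusted p = 1). None passed at this depth. The difference from wild type was -1.94 without recombined 2, -0.60 without recombined 4, -0.36 without recombined 3 and 4 and -2.65 in the 7 libraries without salivary transcripts. That from unrecombined cells was -1.36 to -3.03 over all alternatives, and that of unrecombined from wild type cells was 0.12 to 1.54.

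Genes were also counted by whether the libraries of the groups overlapped at all. In recombined against wild type cells 4 of 6 genes did not overlap, Pdgfa, Pdgfc, Pdgfra and Pdgfrb, where 12.2% of all loci did not (6.33% higher and 5.91% lower). In recombined against unrecombined cells 5 of 6 did not, all but Pdgfa, where the share of all loci was 11.3% (5.57% higher and 5.71% lower). For unrecombined against wild type cells 2 of 6 did not, both receptors and both higher, where the share was 4.42% (2.86% higher and 1.55% lower). The library numbers in the labels begin with 23 or 24, with no stated meaning. Within these series Pdgfra differed between recombined and wild type libraries by -3.50 and -3.86 on the log2 scale, Pdgfrb by -2.20 and -1.95, and Pdgfa by 1.47 and 1.77. Pdgfc differed by 1.00 and 0.63, Pdgfb by 0.69 and 1.34, and Pdgfd turned direction, at 0.36 and -3.42. Unrecombined and wild type libraries differed by 2.02 and 0.93 for Pdgfra and by 1.5 and 0.74 for Pdgfrb, where the second series holds 1 wild type library.

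The balance of ligands and receptors was compared per length, as CPM per kilobase of exon, with exon lengths from the GENCODE M21 annotation of GRCm38. In wild type cells the means were 12.3 ± 4.03 (SD, n = 4) for Pdgfc, 11.5 ± 3.90 for Pdgfra and 4.97 ± 1.14 for Pdgfa. Pdgfrb followed at 2.00 ± 0.444, Pdgfb at 1.40 ± 0.812 and Pdgfd at 0.496 ± 0.349. Neighbors whose ranges of mean ± SD overlapped were Pdgfc and Pdgfra, Pdgfrb and Pdgfb, and Pdgfb and Pdgfd. In unrecombined cells Pdgfra came first at 34.9 ± 12.3, beyond the SD of its neighbor, then Pdgfc at 12 ± 4.68, Pdgfa at 6.33 ± 3.18 and Pdgfrb at 4.61 ± 0.943. Pdgfd at 0.998 ± 0.430 and Pdgfb at 0.778 ± 0.167 came last. Overlapping neighbors were Pdgfc and Pdgfa, Pdgfa and Pdgfrb, and Pdgfd and Pdgfb. In recombined cells the ligands Pdgfc at 22.9 ± 6.15, Pdgfa at 16.7 ± 6.12 and Pdgfb at 2.28 ± 0.0854 came before the receptors Pdgfra at 1.00 ± 0.448 and Pdgfrb at 0.493 ± 0.124. Pdgfd was last at 0.244 ± 0.249. Pdgfc and Pdgfa, Pdgfra and Pdgfrb, and Pdgfrb and Pdgfd overlapped, while Pdgfa and Pdgfb, and Pdgfb and Pdgfra, did not. The authors' own gene models are not given in the sources used here, so these lengths may differ from the counted exons.

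**Figure D3:**
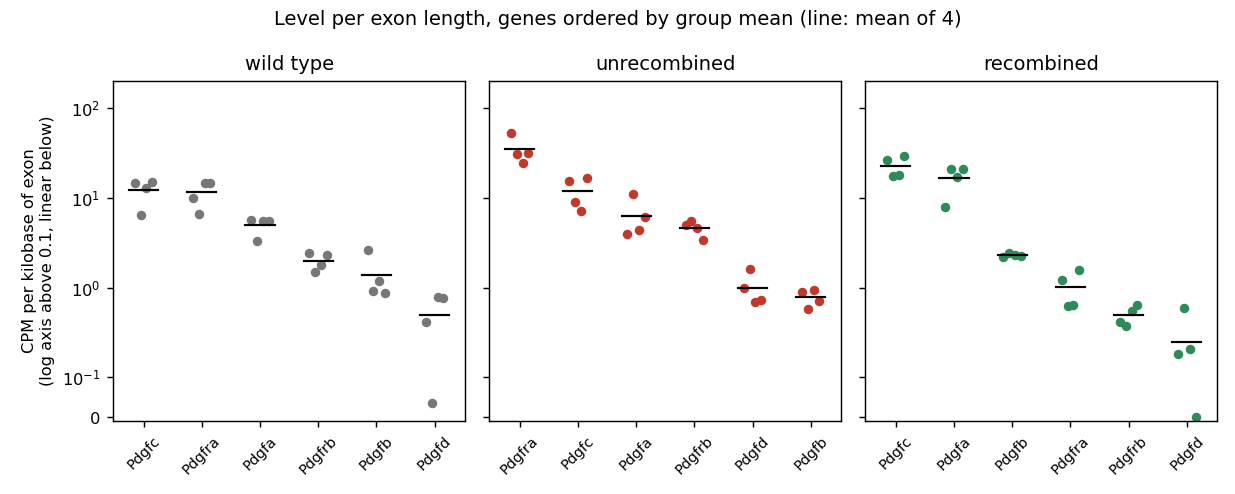
CPM per kilobase of exon of the PDGF genes in each library, with a panel per group, genes ordered by the group mean and a line at the mean of 4 libraries, on an axis that is logarithmic above 0.1 and linear below it. Pdgfra stands first in unrecombined cells at a mean of 34.9, and behind Pdgfc, Pdgfa and Pdgfb in recombined cells at a mean of 1.00.

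Markers of the cells that usually express these genes were set beside them. Fibroblast markers fell in 11 of 12 cases between wild type and recombined cells and rose in none, where 2.38% of all loci fell. Their median log2 change was -4.66 (all loci -0.02). In unrecombined against wild type cells 0 passed, as for all loci, with a median of 1.27 (all loci 0). In recombined libraries 3 and 4, 1 and 2 of these markers had no read. Pdgfra moved in the direction of this list in each comparison, and the part of fibroblast content in its differences was not tested. In each library the log2 CPM of Pdgfra was set against the mean log2 CPM of the 12 markers. Pdgfra lay above that mean by 1.56 ± 1.07 (SD, n = 4) for recombined, 1.08 ± 0.23 for wild type and 1.41 ± 0.40 for unrecombined libraries. Recombined and wild type libraries differed by 0.48 in this measure (exact two-sided permutation test, p = 0.40, adjusted over 12 tests 0.436). With the summed level of the markers in place of their mean the difference was -0.99 (exact permutation test, adjusted p = 0.137), so its direction rests on how the markers are averaged.

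Pdgfrb was set beside pericyte markers. Among 9 tested pericyte markers 2 rose and none fell from wild type to recombined cells, with a median log2 change of 0.04, and 0 passed in unrecombined against wild type cells, with a median of 0.27. Those that rose were Cspg4 (log2 3.33), the proteoglycan NG2, and Kcnj8 (log2 2.81), a potassium channel subunit. Against unrecombined cells Cspg4 passed (3.01, edgeR adjusted p = 0.0202) and Kcnj8 did not (2.15, 0.0761). Rgs5, a pericyte marker, had a difference of -0.16 from wild type (edgeR adjusted p = 0.898). Des, which encodes desmin, was lower by a log2 value close to that of Pdgfrb but did not pass. It differed by -2.10 from wild type (edgeR adjusted p = 0.16, with no overlap) and by -1.95 from unrecombined cells (0.216). Mcam and Anpep lay the other way from wild type and did not pass (1.52, edgeR adjusted p = 0.0604, and 0.56, 0.0527). Rgs5, Des, Mcam and Anpep were chosen after their values were seen. The summed level of the 10 listed genes was 225 to 298 CPM in wild type, 319 to 377 in unrecombined and 291 to 429 in recombined libraries. Most of this sum was Anpep, with means of 160.7, 234.1 and 237.4 CPM in the same order. The row of Ndufa4l2 also holds Shmt2, so its reads cannot be assigned. Whether this list follows pericyte content was not tested. The log2 distance of Pdgfrb from the marker mean was -2.36 ± 0.19 for recombined, 0.09 ± 0.40 for wild type and 1.00 ± 0.23 for unrecombined libraries. No library of a group overlapped another group in this measure. All 3 comparisons reached the smallest p that 4 against 4 libraries allow (exact permutation test, p = 0.0286), which did not pass after adjustment over 12 tests (0.0686). The fibroblast list above moved in the direction of Pdgfrb, and its part in these differences was not tested.

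Pdgfb was set beside endothelial markers. Of 9 tested, 0 passed between recombined and wild type cells, where 6.55% of all loci did. Between recombined and unrecombined cells 0 passed, where 5.22% did. The medians of the log2 differences of these markers were -0.86 and -1.13. The summed level of the list was 94.6 to 156 CPM in wild type, 112 to 203 in unrecombined and 50.6 to 114 in recombined libraries. Relative to the marker mean, Pdgfb was higher by 2.78 in recombined than in unrecombined libraries, with no overlap (exact permutation test, p = 0.0286, adjusted 0.0686), and by 1.82 than in wild type libraries (exact permutation test, p = 0.0571, adjusted 0.098). Of 5 markers of platelets, another known source of PDGF-B, only 2 had enough counts for a test and 0 passed. The part of endothelial or platelet content in the differences of Pdgfb was not tested.

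Pdgfa was set beside basal epithelium, the layer that holds the myoepithelial cells. Of all loci, 4.17% rose in recombined against wild type cells and 3.08% against unrecombined cells. Basal markers rose in 9 of 10 cases from wild type to recombined cells and none fell, with a median log2 change of 2.46. In recombined against unrecombined cells 10 of these markers rose, with a median of 2.92. Among these is the row of Tagln, shared with Pcsk7 and others, at 0.82 against wild type. Relative to the basal marker mean, Pdgfa was lower by 0.52 in recombined than in wild type libraries (exact permutation test, p = 0.0571, adjusted 0.098). It was lower by 1.25 than in unrecombined libraries, with no overlap (exact permutation test, p = 0.0286, adjusted 0.0686). With the markers that have a row of their own these differences were -0.89 and -1.67 (exact permutation test, adjusted p = 0.0571 for each). None of the 12 tests of this kind passed after adjustment. Those whose groups did not overlap had the smallest p these libraries allow (exact permutation test, p = 0.0286, adjusted 0.0686). Their adjusted p was the same whatever the size of the difference, so not passing does not show that the levels were alike. Whether basal content accounts for the higher Pdgfa was not tested.

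**Figure D4:**
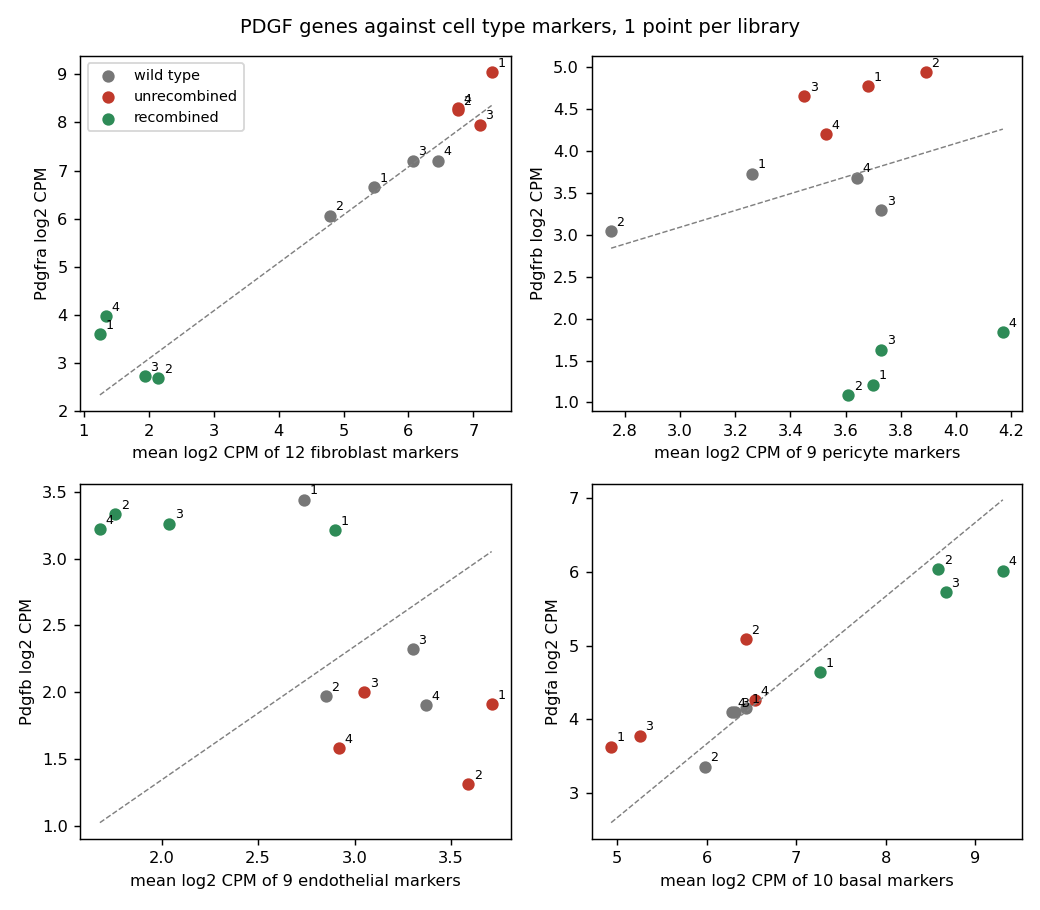
Log2 CPM of Pdgfra, Pdgfrb, Pdgfb and Pdgfa against the mean log2 CPM of fibroblast, pericyte, endothelial and basal markers, with 1 point per library labelled by its replicate number and a dashed line at the mean offset of wild type libraries. For Pdgfra, recombined libraries 1 and 4 lie above the line, at 2.34 and 2.62 over the marker mean against 1.08 on average in wild type, and for Pdgfrb all recombined libraries lie below it, by 2.45 on average.

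The genes most alike across the 12 libraries were found among 6620 loci with a single symbol and a mean log2 CPM of at least 2, by the Pearson correlation of log2 CPM. The points share groups, depth and scaling, so the values are descriptions. For Pdgfra they were the metalloproteinase Mmp3 (0.987), Igfbp4 (0.978), an insulin-like growth factor binding protein, and the collagen Col6a2 (0.978). For Pdgfrb they were Col6a2 (0.982), Pdgfra (0.97) and the collagen Col3a1 (0.969). For Pdgfa they were Palld (0.97), which encodes the actin-associated protein palladin, Glt25d2 (0.961) and Lhfp (0.96). For Pdgfc they were Fam164a (0.933), Arhgap39 (0.911) and the basement membrane collagen Col4a5 (0.907). For Pdgfb they were the chromatin remodeler Chd7 (0.883), Abat (0.87) and Tns3 (0.862), and for Pdgfd, with its few reads, Dtx2 (0.931), Cdc14b (0.923) and Cd302 (0.904).

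The wider pathway was described by 63 genes in lists of proteases, ligand binding proteins, adaptors and effectors, negative regulators and early targets, of which 61 had a row that was tested. From wild type to recombined cells 6 rose and 2 fell, 13.1% against 6.55% of all loci, with a median log2 change of 0.21. In recombined against unrecombined cells 4 rose and 3 fell, 11.5% against 5.22% of all loci, with a median of 0.10. The rows that rose in both comparisons include that of Pcsk7, which is shared with Tagln and other genes. Between unrecombined and wild type cells 0 of 61 passed in edgeR. The genes nearest to passing there were Pcsk5 (1.51, adjusted p = 0.434), a furin-type protease, and Sparc (1.14, 0.46) and Lrp1 (0.93, 0.46), which bind PDGFs or their receptors. Without recombined libraries 3 and 4 the counts were 0 of 61 against wild type and 4 of 61 against unrecombined cells, while the calls among all loci went from 920 to 248 and from 733 to 282. Some log2 changes against wild type were then close to those with all libraries, such as Pik3r1 (0.94), Dusp6 (0.63) and Nrp1 (-1.68), and others were smaller, such as Socs3 (0.52) and Plcg1 (0.47).

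Among proteins that hold or present PDGFs, Nrp1, the co-receptor neuropilin, fell by 2.02 on the log2 scale in recombined against wild type cells (edgeR adjusted p = 0.00882) and by 2.93 against unrecombined cells (0.000764). The first of these calls was lost without recombined 3 and 4 (log2 -1.68, adjusted p = 0.0969). The other 4 tested members of that list did not pass in either comparison. Sparc, a matrix protein that binds PDGF-B, had a log2 difference of 0.84 from wild type (adjusted p = 0.114). Of 7 proteases, Plat, the tissue plasminogen activator that releases PDGF-C, fell by 1.06 against unrecombined cells (adjusted p = 0.0165), a call lost without unrecombined 1 (0.0611) and in the 7 libraries without salivary transcripts (log2 -0.70, adjusted p = 0.215). Furin differed from wild type by 0.66 and did not pass (adjusted p = 0.165). The row of the protease Pcsk7 rose by 0.82 against wild type (adjusted p = 0.0109), but it also holds Bace1, Rnf214 and the smooth muscle gene Tagln, so its reads cannot be assigned. It rose by 0.80 against unrecombined cells (adjusted p = 0.0127). Without recombined 3 and 4 these changes were 0.62 and 0.61 and did not pass (0.118 and 0.135), and the second did not pass in the 7 libraries without salivary transcripts (0.99, adjusted p = 0.0546).

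Of 31 tested adaptors and effectors, 3 rose and 1 fell between wild type and recombined cells, where 4.17% of all loci rose and 2.38% fell. Pik3r1, a regulatory subunit of PI3 kinase, rose by 0.99 (edgeR adjusted p = 0.0113), Fyn, a Src family kinase, by 1.02 (0.0252) and Plcg1, a phospholipase, by 0.78 (0.0327). Nck2, an adaptor, fell by 0.81 (adjusted p = 0.0186). Against unrecombined cells Plcg1 rose by 0.78 (adjusted p = 0.0369) and Grb10, an adaptor that binds receptor kinases, fell by 0.87 (adjusted p = 0.00531). The Pik3r1 call was kept without any single library, but was lost without recombined 3 and 4 (log2 0.94, adjusted p = 0.0776) and in the 7 libraries without salivary transcripts (1.05, 0.061). Without recombined 3 and 4 those of Fyn (0.72, adjusted p = 0.233), Nck2 (-0.58, 0.193) and Plcg1 (0.47, 0.376, and against unrecombined cells 0.48, 0.431) were lost as well. That of Fyn did not hold when recombined 3, recombined 4 or any wild type library but number 4 was left out (adjusted p up to 0.0684), and that of Nck2 without recombined 4 or wild type 4 (up to 0.0721). The Plcg1 call against wild type did not hold without recombined 3, recombined 4, unrecombined 1 or any wild type library but number 1 (up to 0.0977). Against unrecombined cells it was lost without those except wild type 2, and also without unrecombined 2 or 4 (up to 0.115), and in the 7 libraries without salivary transcripts (0.97, adjusted p = 0.0888).

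Of 12 negative regulators, 2 rose in both comparisons of recombined cells. Of all loci, 4.17% rose against wild type and 3.08% against unrecombined cells. Dusp6, a phosphatase of ERK, rose by 0.62 against wild type (adjusted p = 0.0243) and 0.90 against unrecombined cells (0.00292). Socs3, a suppressor of cytokine signaling, rose by 1.35 (0.024) and 1.66 (0.00822). Leaving out recombined 2 or 3, or any wild type library but number 3, ended the Dusp6 call against wild type (up to 0.0835), and leaving out recombined 3 or 4, or any wild type library but number 4, ended that of Socs3 (up to 0.0764). The Socs3 changes without recombined 3 and 4 were 0.52 and 0.84, neither passing (adjusted p = 0.361 and 0.103). The Dusp6 change against wild type was 0.63 without recombined 3 and 4 and did not pass (0.148). In the 7 libraries without salivary transcripts the Dusp6 changes were 0.63 and 0.95 and neither passed (0.136 and 0.0841). The change of Grb10 against unrecombined cells was -0.85 there and did not pass (0.0955). None of 6 early targets, passed in any comparison, and those with the smallest p against wild type were Myc (log2 0.56, edgeR adjusted p = 0.209), Jun (-0.33, 0.389), Fos (-0.31, 0.496) and Ccnd1 (0.27, 0.606).

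Related genes of the same growth factor superfamily and receptor class were also listed. Pgf, placental growth factor, rose by 2.87 on the log2 scale in recombined against wild type cells (edgeR adjusted p = 0.0161), and Vegfc, a lymphatic growth factor, rose by 1.51 (0.0205). Figf, which encodes VEGF-D, fell by 2.07 against wild type (adjusted p = 0.0326) and by 3.36 against unrecombined cells (0.0024). Kdr, a VEGF receptor of endothelium, fell by 2.43 against unrecombined cells (adjusted p = 0.0303). Without recombined 3 and 4 the changes against wild type were 3.05 for Pgf, 1.38 for Vegfc and -1.85 for Figf, and that of Kdr against unrecombined cells was -1.71, and none of these passed (adjusted p = 0.0592, 0.0541, 0.116 and 0.121). In the 7 libraries without salivary transcripts the change of Vegfc was 1.63 (adjusted p = 0.0942), and those of Figf were -2.50 against wild type (0.102) and -3.71 against unrecombined cells (0.058). Single libraries also ended calls: wild type 4 for Pgf (0.05), recombined 4 or wild type 2, 3 or 4 for Vegfc (up to 0.0636), recombined 1 or wild type 3 or 4 for Figf against wild type (up to 0.0991), and recombined 2 or 4 or unrecombined 1 or 2 for Kdr (up to 0.0994). In all, 2 rose and 1 fell of 10 tested in the first comparison, where 6.55% of all loci passed, and 0 rose and 2 fell in the second, where 5.22% did.

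**Figure D5:**
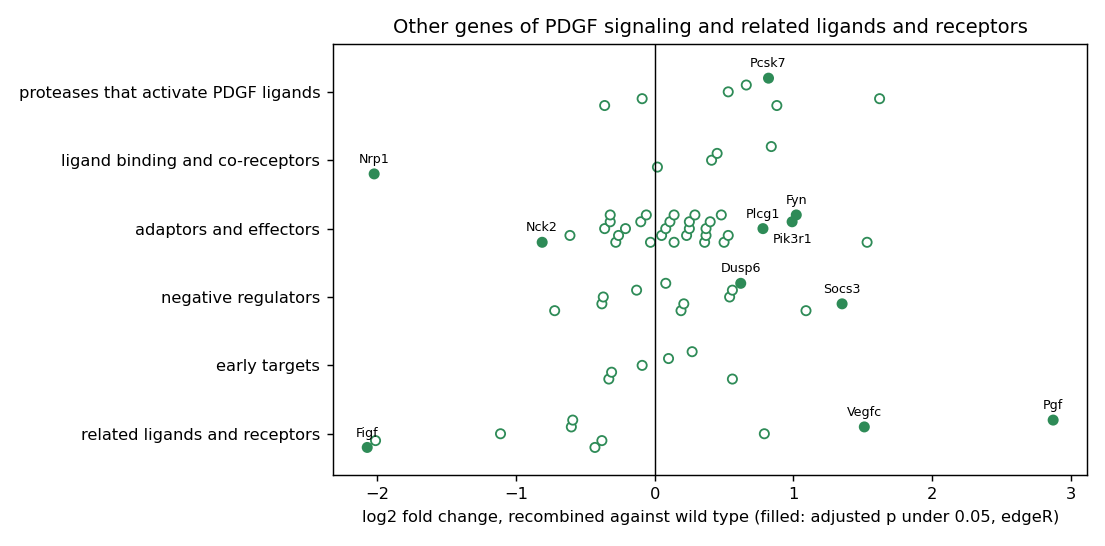
Log2 fold change in recombined against wild type cells of other PDGF signaling genes and of related ligands and receptors, with 1 point per gene, rows by role and filled points for an adjusted p under 0.05 in edgeR. Filled points with names are the 8 pathway rows and 3 related genes that passed, from Figf at -2.07 to Pgf at 2.87. The row of Pcsk7 also holds Tagln and other genes.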

How the data were processed

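RNA of 12 libraries was counted per locus. The authors deposited raw read counts; STAR, HTSeq 0.3.1 and the build mm9 are named per the submitters' processing notes, and options, strand setting and annotation are not given in the sources used here. In the GENCODE M21 annotation, antisense transcripts touch exons of Pdgfa, Pdgfb, Pdgfc and Pdgfra, so reads of either strand may be in these counts. The 16521 of 36635 rows that name several loci were left out.

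Counts were scaled by TMM and tested with the two-sided quasi-likelihood test of edgeR 4.0.16 (R 4.3.3, default filter, robust, all libraries in 1 fit), with Benjamini-Hochberg adjustment over 14039 loci. CPM are TMM scaled, and log2 CPM has a prior count of 2. DESeq2 1.42.0 and limma 3.58.1, other scalings and filters, a replicate block, covariates and left-out libraries were alternatives. The fit was tested on simulated data. Levels relative to markers used exact permutation tests (70 splits).

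As a check of pairing, deviations from the group mean were correlated between recombined and unrecombined libraries sharing a number (r = 0.239, 0.399, 0.244 and 0.298). These were taken as pairs in the same-number differences and in the fits with a replicate block. The main edgeR fit used no pairing. Between recombined and wild type libraries sharing a number r was -0.0314, 0.185, 0.109 and 0.125. Between unrecombined and wild type libraries it was 0.00248, 0.312, 0.157 and 0.159. These were not taken as pairs, though the block in the fit of all libraries also groups them by number. No label states any pairing.

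All 6 family members were named, with up to 4 members of each pathway or related list by smallest p in a comparison, and cell type markers as lists with examples. Members, lists and rules were chosen with earlier results of these data known. The limit given for the Pdgfd library without reads covers counting error only. The SD and SE values include the spread between libraries.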

Additional observations from a re-analysis of the deposited data

Results flagged for a closer look

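In wild type cells the lowest library for Pdgfa, number 2, had 10.2 CPM and lay far from the other 3, which had 17.1 to 17.7 CPM. The same library had the lowest Pdgfc, Pdgfd, Pdgfra and Pdgfrb of its group. It was the 1 wild type library with reads of the salivary gene Pip. Of 18 sets of 4 libraries examined this way, 1 had such a library, and chance gives about 1 in 20.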

How the results depend on the processing

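Pdgfra and Pdgfrb kept direction and call in both comparisons of recombined cells under every alternative run, with log2 changes of -3.82 to -3.34 and -2.36 to -1.83 against wild type and -5.44 to -4.65 and -3.55 to -2.70 against unrecombined cells. In recombined against wild type cells 2 to 4 PDGF genes passed, and in recombined against unrecombined cells 2 without recombined 3 and 4, 2 to 4 without single libraries and 5 with the replicate block. In unrecombined against wild type cells 2, 1 and 2 passed with DESeq2, limma-voom and its library weights. There Pdgfa, at 0.35, was -0.07 in the 7 libraries without salivary transcripts, -0.01 with library weights and -0.04 to 0.52 without single libraries. Pdgfc, at -0.03, was 0.12 with the salivary level as a covariate and -0.24 to 0.16 without single libraries. All loci called numbered 594 and 8 with only the groups compared (recombined and unrecombined against wild type), 248 and, against unrecombined, 282 without recombined 3 and 4, and 1726, 60 and 1457 with DESeq2. In unrecombined against wild type cells limma-voom called 18, its library weights 61 and the replicate block 1. Without single libraries the counts were 502 to 1217 and, against unrecombined cells, 449 to 1044. Pathway rows called in recombined against wild type cells numbered 4 with only those groups, 4 with library weights, 0 without recombined 3 and 4, and 4 to 9 without single libraries. Against unrecombined cells they numbered 4 without recombined 3 and 4, 2 without salivary libraries and 11 with the replicate block on these groups alone. In unrecombined against wild type cells DESeq2 and library weights called 1 each. The replicate block called Pdgfc against wild type (0.92, edgeR adjusted p = 0.0136) and against unrecombined cells (0.96, 0.0115) and changed no other PDGF call. For wild type libraries this block rests on numbers with no stated pairing. With summed markers, Pdgfra relative to fibroblast markers was -0.99 and, against unrecombined cells, -1.14. In the 7 libraries without salivary transcripts, Pdgfa relative to basal markers differed by -0.89 (recombined) and 0.36 (unrecombined) from wild type. The cause was not tested. Depth limits Pdgfd, with at most 135 reads in a library.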
